A study of Mus musculus with 10 samples.

Results

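The 5 genes described here encode the connexins that are usually named in the working and conducting heart, namely Gja5 (connexin Cx40), Gja1 (Cx43), Gjc1 (Cx45), Gja4 (Cx37) and Gjd3. They were taken by name as the cardiac members of the connexin family, a choice made with earlier results of these data known. All 5 are among the 23337 genes counted, which hold 20 connexin genes in all, and 4 of the 5 had enough reads to be tested. RNA of the right atrium was sequenced from 10 adult mice, 1 library per mouse, of which 4 are labelled control and 6 are labelled Tbx5 mutant.

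The mice labelled mutant carry a removal of Tbx5 by R26Cre, a tamoxifen-inducible Cre recombinase under the ubiquitous R26 promoter, so that excision of exon 3 is not restricted to one cell type. Mice of this model are Tbx5 fl/fl;R26CreERt2 and their controls R26CreERt2 in the published methods, which describe the left atrium, while the labels of the right atrial mice say only control. The protocol gives 0.167 mg of tamoxifen per day for 3 days to the mice, with dissection 1 week later, and the strain is a mix. The age is stated as 8 to 10 weeks in one label and as 6 to 8 weeks in another.

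Connexins assemble by sixes into hemichannels, and hemichannels of neighbouring cells dock into gap junctions that pass ions and small molecules. In heart muscle these channels carry the action potential from cell to cell. Cx40 is abundant in atrial muscle, in the fast conducting ventricular bundles and in arterial endothelium. Cx43 is the main connexin of working muscle, Cx45 is typical of nodal tissue and the early heart, and Cx37 is mostly endothelial. Tbx5 is a T-box transcription factor, and Gja5 is a textbook target of it.

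Total counts per library were between 5703775 and 7095141. The mutant mouse M3 stood apart in that 38.9% of its counts fell on Rn45s, a ribosomal RNA gene. Reads of sex-linked genes went against the sex labels of the 4 control mice and matched those of the 6 mutants. Control M1 and M2 are labelled male and had 10149 and 7850 reads of Xist, whereas control F1 and F2 are labelled female and had 5 and 14. The targeted gene, Tbx5, did not fall over its whole length. In CPM, which are reads scaled to the size of each library, Tbx5 stood at 205 ± 17.8 (SD) among the 4 controls and at 394 ± 83.3 among the 6 mutants, a log2 difference of 0.94 (SE 0.15, adjusted p = 0.000495, edgeR quasi-likelihood test). Counts over the whole gene do not separate transcripts with exon 3 from those without it. Every direction is therefore given by the labels.

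The sequences before the starts of Gja5 and Gja1 are shown because these genes had the larger falls described next. They are the 250 bases upstream of the RefSeq start on GRCm38.p6, both on the forward strand, from chr3:97032152-97032401 for Gja5 and chr10:56377050-56377299 for Gja1. The window of Gja5 lies inside the gene as annotated by GENCODE, from 96904693 to 97077416, so it precedes an internal start. Sequence before the annotated gene start was not searched. RefSeq entries were matched for 3 of the 5 genes, the third being Gja4. Capitals mark matches on either strand to 3 short motifs. The shortest form searched for T-box factors was GGTGT. For NK2 homeodomain factors such as Nkx2-5 the letters were AAGTG. For zinc finger factors such as Gata4 they were GATAA.
Gja5: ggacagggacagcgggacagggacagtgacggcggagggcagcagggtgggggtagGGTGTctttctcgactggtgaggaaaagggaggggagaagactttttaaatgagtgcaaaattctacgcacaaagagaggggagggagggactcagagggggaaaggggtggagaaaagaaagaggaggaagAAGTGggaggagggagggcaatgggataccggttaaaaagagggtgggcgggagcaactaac
Gja1: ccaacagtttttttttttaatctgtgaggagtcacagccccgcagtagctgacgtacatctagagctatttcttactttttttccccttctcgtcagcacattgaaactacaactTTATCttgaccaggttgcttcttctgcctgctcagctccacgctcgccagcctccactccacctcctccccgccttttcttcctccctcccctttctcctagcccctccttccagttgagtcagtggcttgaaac
The window of Gja5 held GGTGT once, 194 bases before the start, and AAGTG once, 62 bases before it. The window of Gja1 held GATAA once, on the reverse strand, 135 bases before the start. The longer T-box forms GGTGTG and AGGTGTGA, which contain GGTGT, were in none of the 3 windows. Among 32851 mouse promoters of the same length, 36.2% held GGTGT, 40.7% AAGTG, 22.6% GATAA, 16.3% GGTGTG and 1.12% AGGTGTGA. These matches describe the letters only.

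Gja5 was lower in every mouse labelled mutant than in any mouse labelled control. Its level was 209 CPM in control M1, 256 in M2, 238 in F1 and 178 in F2. In the mutants the lowest level was 8.22 CPM, the median 10.7 and the highest 15.8, from 52 to 92 reads per library against 1312 to 1548 in the controls. The groups did not overlap, and the mutant range lay far below the control range. The fitted log2 fold change was -4.31 (SE 0.18, 95% interval -4.70 to -3.92), a 19.8-fold lower level, with an adjusted p of 4.01e-09 in edgeR's quasi-likelihood test. It was the 8th largest fall among 13084 genes tested. The two-sided exact permutation test over the 210 assignments of the mice gave p = 0.00952, the smallest that 4 against 6 mice allow when the smaller tail is doubled. Gja5 (ENSMUSG00000057123.14) lies on chromosome 3 from 96904693 to 97077416, forward strand, in the GENCODE M21 annotation of GRCm38. Its exons share 165 bases with Gpr89 on the opposite strand. Gpr89 had 133 to 199 reads in the controls and 115 to 193 in the mutants (log2 fold change -0.01, adjusted p = 0.973).

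Gja1 also fell, by less. Its level was 306 CPM in control M1, 509 in M2, 589 in F1 and 534 in F2. In the mutants it was 62.9 CPM at the lowest, 89.8 at the median and 174 at the highest. The groups did not overlap, and control M1 was the nearest to the mutants. The log2 fold change was -2.27 (SE 0.27, 95% interval -2.86 to -1.69), a 4.84-fold lower level (adjusted p = 4.89e-05, edgeR; exact permutation p = 0.00952). Gja1 (ENSMUSG00000050953.10) lies on chromosome 10 from 56377330 to 56402513, forward strand.

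**Figure D1:**
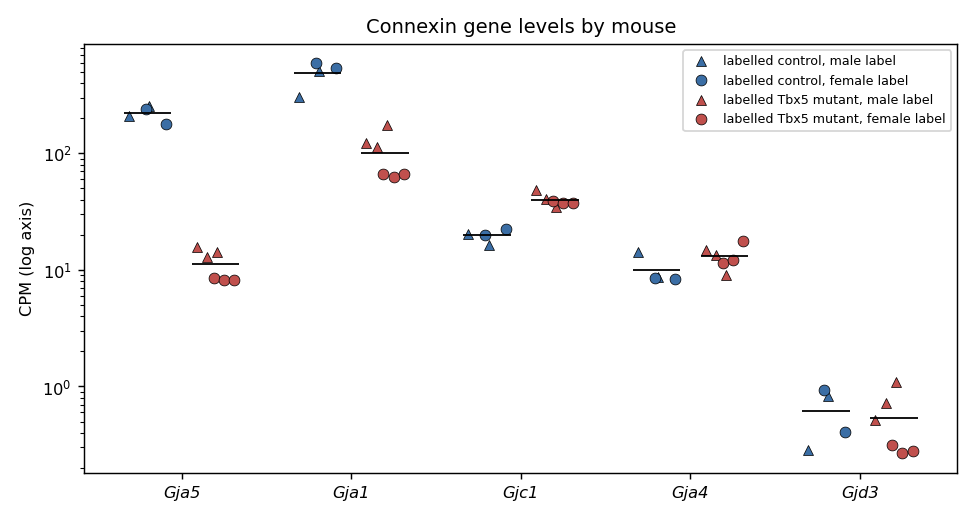
Level of each connexin gene in each mouse, in CPM on a log axis. Triangles are mice labelled male, circles mice labelled female, and black lines group means. Gja5 and Gja1 of the mice labelled Tbx5 mutant lie below every control, Gjc1 lies above every control, and Gja4 and Gjd3 overlap.

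Gjc1 moved the other way. Its level was 20.3 CPM in control M1, 16.4 in M2, 20.1 in F1 and 22.5 in F2. The mutants ran from 34.3 CPM through a median of 38.1 to 48.3. Every mutant lay above every control. The log2 fold change was 0.99 (SE 0.12, 95% interval 0.74 to 1.25), a 1.99-fold higher level (adjusted p = 4.29e-05, edgeR; exact permutation p = 0.00952). The fold lay just under 2, so that Gjc1 is called at the threshold of 1.5 used here and not at 2. Gjc1 (ENSMUSG00000034520.14) lies on chromosome 11 from 102799579 to 102819700, reverse strand.

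Gja4 did not pass the test. Its level was 14.3 CPM in control M1, 8.77 in M2, 8.47 in F1 and 8.39 in F2, with 8.99, 12.8 and 17.7 as the lowest, median and highest mutant. Control M1 was above most mutants while the other 3 controls were below all of them. The log2 difference was 0.40 (SE 0.20, 95% interval -0.03 to 0.82, adjusted p = 0.14, edgeR; exact permutation p = 0.124). Without control M1 it was 0.64 with an adjusted p of 0.0265, which would pass, so 1 control mouse decided this call. Gja4 (ENSMUSG00000050234.7) lies on chromosome 4 from 127311421 to 127314039, reverse strand.

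Gjd3 was at the limit of detection. Its reads numbered 2, 5, 6 and 3 in control M1, M2, F1 and F2, and from 2 to 5 in the mutants, 16 and 18 reads in all. These counts lie around the 3 reads taken as the floor of a library, and a difference was not detectable at this depth (exact permutation p = 0.695). Gjd3 (ENSMUSG00000047197.1) is a single exon on chromosome 11 from 98982180 to 98983016, reverse strand.

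**Figure D2:**
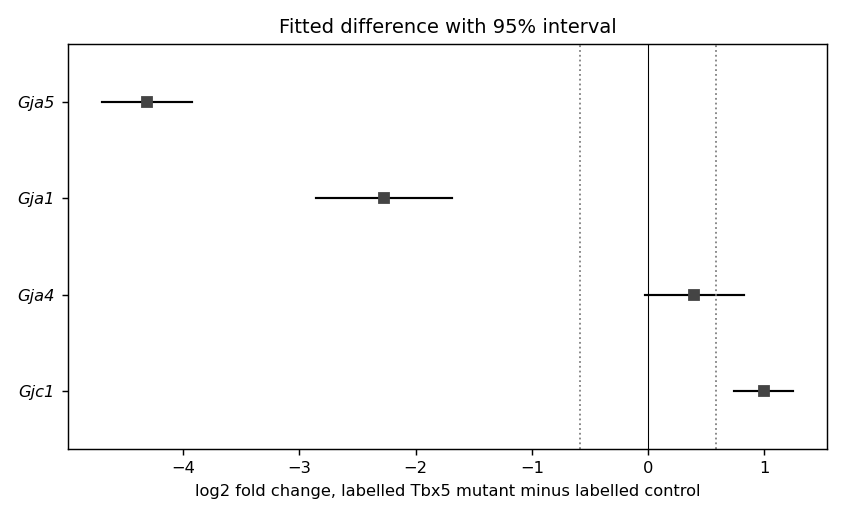
Fitted log2 fold change of the 4 connexin genes tested, mice labelled Tbx5 mutant minus mice labelled control. Squares are estimates, bars 95% intervals, and dotted lines a fold change of 1.5. The interval of Gja5 lies below that of Gja1, that of Gjc1 lies above 0, and that of Gja4 spans 0.

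Of the 4 connexin genes tested, 3 were called, meaning an adjusted p under 0.05, a fold change over 1.5 and a control mean of the authors' normalized signal over 1. Over all 13084 genes tested 15.7% were called, 7.16% lower and 8.5% higher. Lower calls were Gja5 and Gja1, and the higher call was Gjc1. The levels of these 3 genes did not overlap between the groups, as was so for 22.7% of all genes tested. In bulk tissue, fewer cells of a type and less RNA per cell cannot be told apart.

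The make-up of the connexin transcripts differed between the groups. Per kilobase of merged exons, the 5 genes summed to 96.2 ± 13.2 CPM per kb in the controls (SD, n = 4) and 28.1 ± 4.93 in the mutants (n = 6). Gja5 made up 40.1% of this sum in the controls, from 33.2 to 46.0%, and 6.89% in the mutants, from 5.46 to 8.14%. Gja1 went from a mean share of 48.6% (37.7 to 56.0%) to 33.9% (24.6 to 51.5%), and these ranges overlapped. With no division by length its mean share went from 65.2 to 59.0%. The shares of Gjc1 went from 4.20 to 28.7% and those of Gja4 from 6.42 to 28.3%. The level of Gja4 itself did not pass the test and that of Gjc1 rose 1.99-fold, so both shares are read beside the lower sum. With the longest transcript as the length, the share of Gja5 went from 31.0 to 6.23% and that of Gja4 from 3.20 to 16.8%. With that length Gja1 went from 62.5 to 51.1% and Gjc1 from 3.03 to 24.7%. No test was run on shares, which are built from the same genes.

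**Figure D3:**
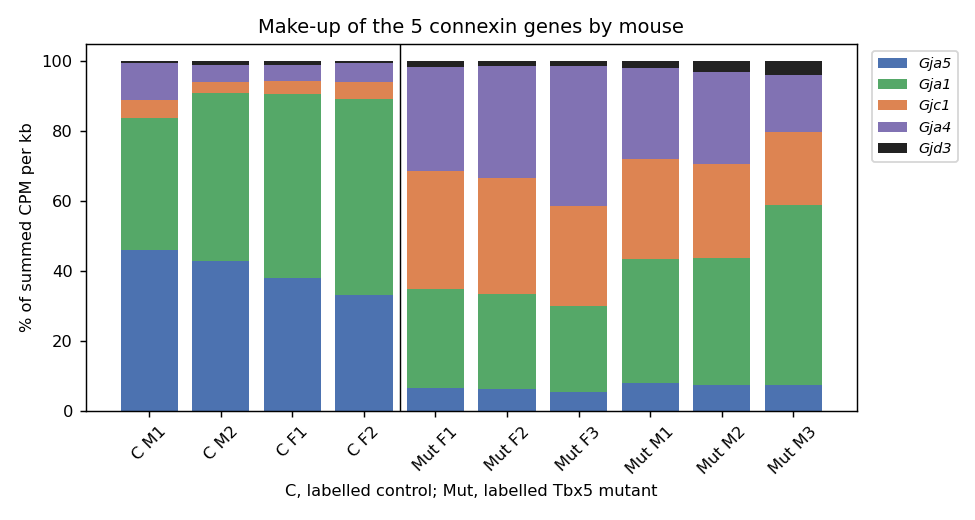
Share of each connexin gene in the summed CPM per kb of merged exons, in percent, 1 bar per mouse. Gja5 and Gja1 fill most of the bars of the 4 mice labelled control, and Gja5 is at most 8.14% in the 6 mice labelled Tbx5 mutant.

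The ratio of Gja5 to Gja1 per kilobase was lower in the mutants as well. On the log2 scale it was 0.29 in control M1, -0.16 in M2, -0.47 in F1 and -0.75 in F2. In the mutants it lay between -2.78 and -2.09, below every control. These values use merged exons. With the longest transcript the controls ran from -1.50 to -0.46, and with no division by length from -1.59 to -0.55. The sign of the ratio in control M1 therefore depends on the length used. With each choice of length the mutants lay below every control.

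Levels of Gja1 also varied within the mutants. Mutants F1, F2 and F3 had 66.2, 62.9 and 66.2 CPM, and mutants M1, M2 and M3 had 123, 113 and 174. The highest value, in M3, comes from the library with 38.9% of its counts on Rn45s. Gja5 split in the same way, at 8.52, 8.26 and 8.22 CPM in F1, F2 and F3 and 15.8, 12.8 and 14.2 in M1, M2 and M3. In the mice labelled male the log2 fold change of Gja1 was -1.58 (SE 0.25, adjusted p = 0.00931, edgeR). In those labelled female it was -3.11 (SE 0.11, adjusted p = 1.31e-07, edgeR). The interaction of group and labelled sex was 1.53 (SE 0.30, adjusted p = 0.0666) and did not pass. Since the Xist reads of the controls went against their labels, the fit was repeated with the control labels exchanged. Gja1 was then higher in males by 0.81 (SE 0.17, adjusted p = 0.0851), which did not pass either, where 0.168% of all genes did. The interaction was 0.60 (adjusted p = 0.591) with this coding. For Gja5 the interaction was 0.61 (adjusted p = 0.372) with the labels as given and 0.93 (adjusted p = 0.245) with them exchanged. Among mice with Xist reads the log2 fold changes were -2.64 for Gja1, -4.80 for Gja5 and 1.04 for Gjc1, and among mice without them -2.03, -3.85 and 0.97. All 6 were called.

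Most of the rest of the family was little expressed, with Gja3 as an exception. Of the other 15 connexin genes 4 could be tested, of which 1 fell and 1 rose, and 9 had at most 3 reads in every library. Gja3 (Cx46, best known from the lens) fell, from 90 to 139 reads in the controls to 39 to 86 in the mutants (log2 fold change -0.75, SE 0.12, adjusted p = 0.000482, edgeR). Its level in the controls, 14.9 to 18.8 CPM, was near that of Gjc1, 16.4 to 22.5 CPM. Gjb5 did not pass (0.07). Pannexins form single-membrane channels related in shape to hemichannels. Panx2 fell from 26 to 51 reads to 1 to 10 (-2.87, SE 0.30, adjusted p = 1.72e-05), and Panx1 rose by 0.64 (SE 0.19, adjusted p = 0.0192).

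Of 26 genes for proteins that anchor, carry or turn over connexins at the intercalated disc, all were tested, 5 were called lower and 2 higher, with a median log2 fold change of -0.09. Over all genes tested 7.16% were called lower and 8.5% higher, so the higher calls lie near the background. The desmosomal cadherins Dsc2 (-1.47, SE 0.11, adjusted p = 5.91e-07, edgeR) and Dsg2 (-0.94) fell, as did Ctnna3 (-0.77) and Ctnna1 (-0.63). The desmosomal Pkp2 (0.93) and the caveolar Cav3 (1.06) rose. Tjp1, which encodes the scaffold ZO-1 that binds Cx43, had a log2 fold change of -0.38 (adjusted p = 0.0144, edgeR) and was not called, its fold being under 1.5. On the higher side the same held for Cdh2 (0.47, adjusted p = 0.0021, edgeR) and Vcl (0.36, adjusted p = 0.0175). It also held there for Cav1 (0.30, adjusted p = 0.0329, edgeR) and Mapre1 (0.24, adjusted p = 0.0262).

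Of 19 genes for transcription factors or their cofactors known for acting on connexin genes, 15 were tested. Of these, 2 were called lower and 1 higher. These 3 of 15 stand beside 15.7% called among all genes tested, a share near the background. Hopx, a homeodomain cofactor, fell (-1.49, SE 0.17, adjusted p = 2.8e-05, edgeR). Tbx3, a T-box repressor of Gja5 and Gja1 in nodal tissue, fell from 32 to 69 reads to 10 to 33 (-1.07, SE 0.25, adjusted p = 0.00518). The rise was that of Tbx5 itself. Nkx2-5 (-0.43, adjusted p = 0.0204, edgeR), Sp1 (-0.31, adjusted p = 0.0222) and Jun (0.42, adjusted p = 0.0487) missed only the fold threshold. Gata4 (0.10) and Tbx20 (-0.04) were not called.

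Markers of the cell types that carry these connexins were measured in the same libraries, and their counts are of called genes, to be read beside 15.7% over all genes tested. Of 10 atrial cardiomyocyte markers 6 fell and 1 rose, with Myl7 (-2.73) and Stard10 (-2.29) falling most and Tnnt2 rising (1.12). Among the others Myl4 (-0.44, adjusted p = 0.0217, edgeR) and Actn2 (0.33, adjusted p = 0.0263) missed only the fold threshold, and Myh6 (0.10) did not pass. The summed level of the 10 atrial markers was 70530 to 82653 CPM in the controls and 52535 to 67749 in the mutants. The largest parts of the control sums were Nppa (24272 to 28083 CPM) and Myh6 (20727 to 32508 CPM). Of 10 general endothelial markers 0 were called, with sums of 1364 to 1848 and 1567 to 1908 CPM. Among them Emcn (0.55, adjusted p = 0.0132, edgeR) and Egfl7 (0.31, adjusted p = 0.0289) missed only the fold threshold. Of 10 arterial endothelial markers 1 was called, Hey1 (-0.68), with sums of 264 to 329 and 298 to 326 CPM. Unc5b (0.58, adjusted p = 0.0003, edgeR) and Jag1 (0.36, adjusted p = 0.0379) missed the fold threshold there. Of 7 sinoatrial markers tested Hcn4 (-1.88), Tbx3 and Cacna1d (-0.66) fell, and the sums went from 189 to 232 CPM to 139 to 167. Of 4 ventricular markers tested Myl3 (3.92) and Myl2 (2.10) rose, while Myh7 (0.92, adjusted p = 0.208, edgeR) and Hey2 (-0.31, adjusted p = 0.292) were not called. Their sums, with the untested Irx4 at no more than 1 read in any library, were 193 to 299 CPM in the controls and 790 to 1589 in the mutants.

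Other cell types were measured by the same kind of list. Of 10 smooth muscle and pericyte markers Acta2 (1.98) and Tagln (2.01) rose. The sums were 446 to 531 CPM in the controls and 497 to 976 in the mutants. Among the others Abcc9 (-0.58, adjusted p = 0.000505, edgeR) missed only the fold threshold on the lower side. Pdgfrb (0.41, adjusted p = 0.0137, edgeR) and Cspg4 (0.51, adjusted p = 0.0149) missed it on the higher side. Myh11 (0.23), Cnn1 (0.87), Notch3 (0.28), Rgs5 (-0.22) and Kcnj8 (-0.27) did not pass. Of 8 fibroblast markers Postn (2.33), Col1a1 (1.31) and Col3a1 (1.27) rose and Gsn (-0.76) fell, with sums of 8537 to 10440 and 8921 to 11715 CPM. Pdgfra (-0.40, adjusted p = 0.0152, edgeR) missed only the fold threshold, and Dcn (-0.01), Lum (0.45) and Tcf21 (0.57) did not pass. Of 5 leukocyte markers 4 rose, led by Cd68 (1.00), with sums of 323 to 531 and 533 to 784 CPM. Of the adipocyte markers the single gene tested, Fabp4, rose (0.73), with sums of 133 to 195 and 197 to 387 CPM. These sums were mostly Fabp4 itself, at 132 to 191 and 196 to 367 CPM, and Adipoq, Plin1 and Cidec were not tested. Of 4 epicardial markers 0 were called, with sums of 277 to 290 and 161 to 335 CPM. The part of these cell types in the connexin values was not tested.

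**Figure D4:**
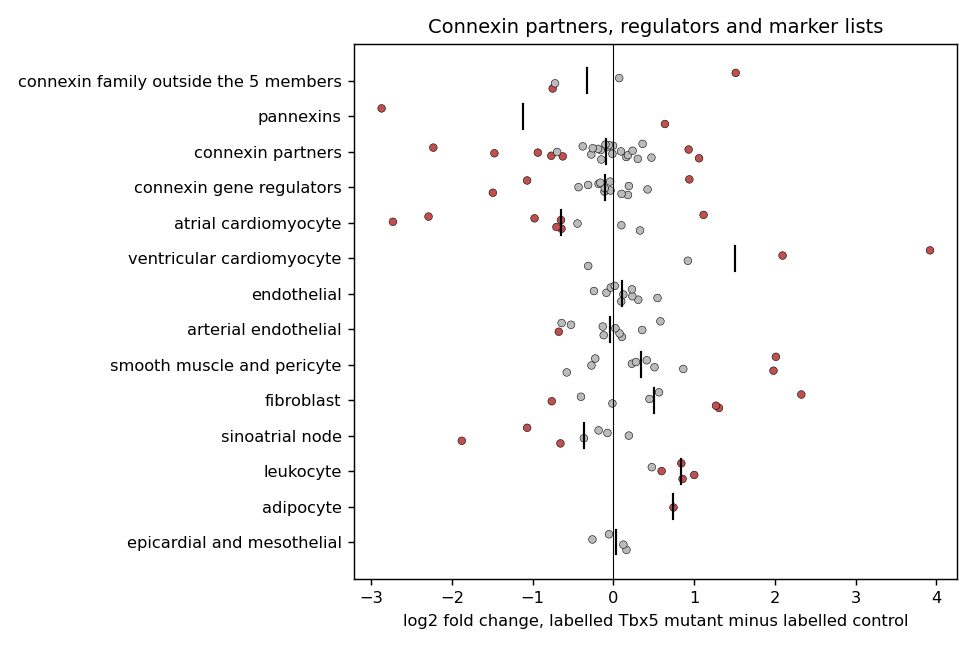
Log2 fold change of every tested gene in each list, mice labelled Tbx5 mutant minus mice labelled control. Red points were called, grey points were not, and black bars are list medians. The medians are -0.65 for atrial cardiomyocyte, 0.11 for endothelial and 1.51 for ventricular markers.

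The genes whose log2 CPM followed each connexin gene most closely over the 10 libraries are given as a description. For Gja5 they were Pam (r = 0.996), Gm1078 (0.995) and Npy1r (0.991), for Gja1 Mov10l1 (0.992), Tgoln1 (0.986) and Ablim3 (0.981), and for Gjc1 Atad2 (0.978), Myh8 (0.976) and Ccdc69 (0.974). For Gja4 they were Hic2 (0.913), Acvr1b (0.892) and AI593442 (0.878). The points share the difference between the groups. After subtracting group means, Gja5 and Gja1 had r = 0.784 with each other. Among 13083 genes Gja1 ranked 86 for Gja5, and Gja5 ranked 173 for Gja1. This subtraction leaves in place the difference between mutants labelled male and female that both genes showed. The closest genes were then Apool (0.988), Acss3 (0.967) and Prkci (0.960) for Gja5, and Uqcrc2 (0.955), Mov10l1 (0.954) and Acadvl (0.948) for Gja1. For Gjc1 they were Nrg4 (0.926), Lrig1 (0.916) and Prkcz (0.904), and for Gja4 Acap3 (0.931), Acvr1b (0.930) and Kcnip4 (0.919).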

How the data were processed

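Right atrial RNA of 10 mice was sequenced. The authors deposited 1 table of raw counts per gene and library, with a normalized signal made by the authors by dividing counts by size factors. Columns of the authors' own comparison (fold changes and p-values) were not used. The submitters' processing notes name FastQC, TopHat2 2.0.11, featureCounts, DESeq2 and mm10. The labels describe both an mRNA kit and removal of ribosomal RNA. The published methods describe stranded reads for the left atrium, and the strand setting used in counting the right atrial libraries was not given in the sources used here.

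The count test was that of edgeR 4.0.16, run in R 4.3.3 (expression filter with a minimum count of 10, TMM, quasi-likelihood test, prior count 0.125) over all 10 libraries, with Benjamini-Hochberg adjustment over 13084 genes. Each SE is |log2 fold change| divided by the root of the F statistic, and 95% intervals use the degrees of freedom of the test. CPM use the TMM library size. Intervals and floors cover counting error or the spread between mice only, and reads carry no molecular identifiers. limma 3.58.1 and DESeq2 1.42.0 served as alternatives. The members and lists were chosen with earlier results of these data known.

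Exact permutation tests on log2(CPM + 1) used scipy, which doubles the smaller tail. They were first run on the absolute difference of means, and the doubled tail was taken after those values had been seen. That first permutation form gave p = 0.00476 for Gja5, Gja1 and Gjc1, 0.114 for Gja4 and 0.695 for Gjd3, and no call rests on either form.

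Named genes were the 5 connexins, Tbx5, other connexin and pannexin genes tested, up to 3 falls and 3 rises among called genes per list, the 3 genes closest in r per connexin, and overlapping genes. Some genes that meet this rule are not reported here. Other list members named as not called were chosen after their values were seen. They are Tjp1, Nkx2-5, Gata4, Tbx20, Irx4, Myh7, Hey2, Emcn, Egfl7, Unc5b, Jag1, Abcc9, Pdgfrb, Cspg4, Myh11, Cnn1, Notch3, Rgs5 and Kcnj8. Further ones are Myl4, Actn2, Myh6, Cdh2, Vcl, Cav1, Mapre1, Pdgfra, Dcn, Lum, Tcf21, Sp1 and Jun, and the untested Adipoq, Plin1 and Cidec. The remaining falls among the partners, Nppa, and the ribosomal and sex-linked genes, were also chosen after their values were seen. Gene positions and lengths come from GENCODE M21 and promoters from RefSeq.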

Additional observations from a re-analysis of the deposited data

Results flagged for a closer look

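Gja4 in control M1, at 14.3 CPM, lay far from the other 3 controls, of which the nearest was at 8.77 CPM. The gap was 0.936 of the range of the group, against a critical value of 0.829 (Dixon). The same test was applied to 12 groups of values, and chance flags about 1 group in 20.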

How the results depend on the processing

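The directions of Gja5, Gja1, Gjc1 and Gja4 held under all 30 refits, and the calls of Gja5, Gja1 and Gjc1 held under each. Their log2 fold changes ranged from -4.80 to -3.85, from -3.11 to -1.58 and from 0.83 to 1.17. Leaving out 1 mouse gave -4.45 to -4.22, -2.49 to -2.15, 0.92 to 1.07 and, for Gja4, 0.30 to 0.64. Gja4 passed only without control M1, which raised the higher calls among the connexins from 1 to 2, and its adjusted p otherwise reached 0.802. A fold change over 2 left 0 higher connexin calls. Gjd3 had too few reads for a main value. Without the filter its log2 fold change was -0.28 (adjusted p = 0.737, edgeR).

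The 2 calls among the other connexin genes, 1 lower and 1 higher, became 1 with a mean count of at least 50, with the replicate block and length trend removed, in mice labelled female, in mice with or without Xist reads, and over a fold of 2, and 0 in mice labelled male. The higher call was 0 in each of these except over a fold of 2, and the lower call was 0 there and in mice labelled male. Partner calls were 3 over a fold of 2 (2 lower, 1 higher) and 12 with no fold threshold (6 higher), with 3 lower in mice labelled male. Regulator calls were 1 in mice labelled male (1 lower, 0 higher) and 6 with no fold threshold (4 lower, 2 higher), with 1 lower at a mean count of at least 50, 2 higher in mice with Xist reads and 0 higher over a fold of 2.

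The difference in the share of Gja5 was -33.2 percentage points per merged exons, -24.7 with the longest transcript and -23.7 with no division by length. The log2 difference in the ratio of Gja5 to Gja1 was -1.99, -2.47 in mice labelled male and -1.52 in mice labelled female. The cause was not tested. In both label subsets the controls and mutants are unlike in Xist reads. With Xist reads, the log2 ratios per merged exons were 0.29 and -0.16 in controls and -2.17 to -2.09 in mutants. Without them, they were -0.47 and -0.75 in controls and -2.78 to -2.12 in mutants. Same-numbered mice did not deviate together (r from -0.05 to 0.04 in 4 pairs). These 4 pairs cannot exclude a pairing, as the sex labels of the controls went against their Xist reads. The replicate block changed no call of the connexins, while all calls went from 2049 to 1957. The 2 fits by Xist reads were added after seeing the data.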
